A study of Mus musculus with 9 samples.

Results

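The genes Dppa2, Dppa4, Dppa5a, Zfp42, Utf1 and Fgf4 are markers of the late, pluripotent phase of reprogramming. They were chosen by name, with earlier results of these data known. All 6 were found in the annotation, among 22367 protein-coding genes on the assembled chromosomes. Their chromatin accessibility was followed by ATAC-Seq, in which the Tn5 transposase cuts open DNA and the sequenced fragment ends mark where it was open. The cells were mouse embryonic fibroblasts (MEFs) that carried a GFP reporter at Oct4, and pMXs retroviruses for Sox2, Klf4, Oct4 and c-Myc (OSKM) were used to convert them to induced pluripotent stem cells (iPSCs) in a feeder-free medium. There were 9 libraries, 1 for each condition. D0 and D3 were unsorted cells of day 0 and day 3 of OSKM induction, D6T- and D9T- were Thy-1-negative cells of day 6 and day 9, and D12S+ and D16S+ were SSEA-1-positive cells of day 12 and day 16. Unsorted iPSCs closed the course. The 4 libraries up to D9T- are called early below and the other 3 of the course late. D6 siH3.3 and D6 siNT were day 6 cells treated with siRNA against the histone variant H3.3 or with a non-targeting control, and their labels give them as Thy-1-negative. Per the paper, this knockdown was transient and made when reprogramming began. Thy-1 marks the fibroblasts and SSEA-1 the cells on the way to pluripotency, so time and sort changed together between D9T- and D12S+ and their effects cannot be told apart. In a bulk library, fewer cells with an open promoter and a less open promoter in each cell cannot be told apart either.

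Pluripotent cells hold their identity through a circuit of transcription factors in which Oct4 and Sox2 often bind side by side at enhancers. Dppa2 and Dppa4 are neighbouring genes whose SAP-domain proteins act as a pair on chromatin. Zfp42, also named Rex1, is a zinc finger factor related to YY1, and Utf1 is a chromatin-associated protein of undifferentiated embryonic cells. Dppa5a codes for an RNA-binding protein with a KH domain. Fgf4 is a secreted growth factor that acts through FGF receptors and the ERK pathway. These genes are silent in fibroblasts and serve as signs that reprogramming has entered its last phase.

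The libraries held between 13213117 tags (D9T-) and 31714845 tags (D0), and the number of called regions ran from 36708 (D9T-) to 133132 (D6T-). A level is the highest number of extended tags over a summit, per 1000000 tags of the library (CPM), with the exact Poisson 95% interval of the tag number. These intervals cover counting error alone, as there were no replicates, and no test between conditions could be made. The lowest pileup that was called was 7 to 11 tags, or 0.331 to 0.530 CPM, and no library called a region shorter than 200 bp. A promoter without a called region was therefore taken as below that level, although a short opening above it would also go uncalled. The libraries differed in their general scale. At the 9818 protein-coding promoters called in all 9 libraries, the median was 0.946 CPM at D0 and 1.20 in iPSCs, with higher values between them (2.28 at D3, 3.83 at D6T-, 1.51 at D9T-, then 2.44 and 2.31 in the SSEA-1-positive libraries). It was 1.45 in D6 siH3.3 and 1.38 in D6 siNT. Levels are therefore also given as a ratio to this median, called the relative level, where the scale changes a direction.

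All 6 promoters, taken as 3 kb upstream of the TSS, had a called region in D16S+ and in iPSCs, where 63.0% and 63.9% of all protein-coding promoters had 1. At D12S+ the number was 4 of 6 (Dppa5a, Zfp42, Utf1 and Fgf4), against 63.0% of all promoters. Before that, the count was 0 of 6 in both D0 and D9T-, 2 of 6 in D3 (Utf1 and Fgf4) and 1 of 6 in D6T- (Utf1). The shares of all promoters were 58.0% in D0, 50.4% in D9T-, 67.8% in D3 and 68.3% in D6T-. Dppa2, Dppa4, Dppa5a and Zfp42, 4 of the 6 genes, were called in D16S+ and iPSCs and in none of D0, D3, D6T- and D9T-. Of all protein-coding promoters, 0.805% (180 genes) had this order. When a summit within 500 bp of the TSS was asked for, a rule added after seeing the data, 5 of 6 genes had it, with Fgf4 as the additional gene, against 0.908% of all genes. At the gene starts, the order of the calls was thus Utf1, then Zfp42 with the weaker Dppa5a and Fgf4, then Dppa2 and Dppa4.

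**Figure D1:**
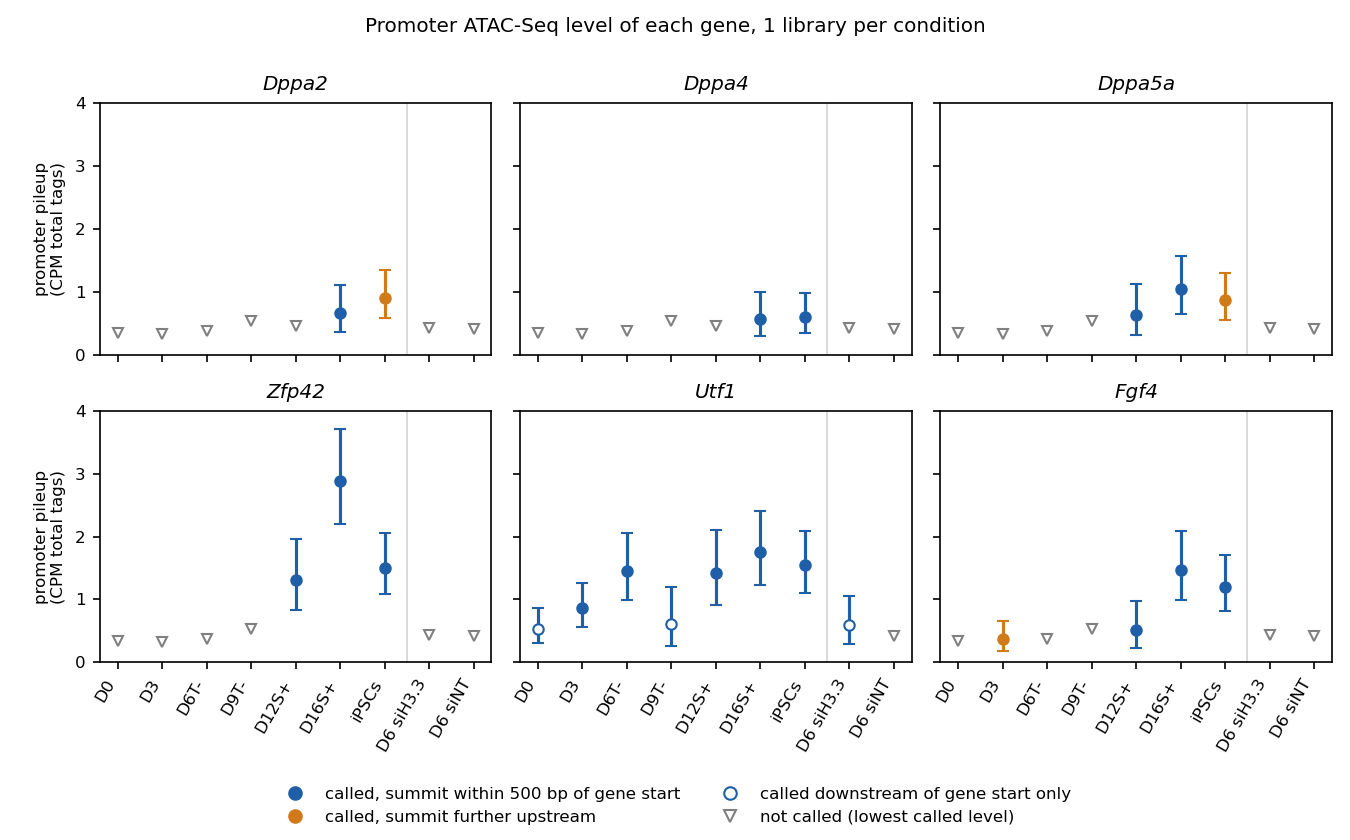
Promoter level (highest pileup in CPM of total tags, y axis) of each gene in the 9 libraries (x axis), with bars for the 95% Poisson interval of the tag number and triangles at the lowest called level where no region was called. Zfp42 rises to 2.88 CPM at D16S+, and Dppa4 stays at 0.602 CPM or below. Utf1 has a region with its summit within 500 bp of its TSS in 8 of the 9 libraries.

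Dppa2 (ENSMUSG00000072419.4, chr16:48310590-48319836 of mm9, plus strand) and Dppa4 (ENSMUSG00000058550.7, chr16:48283848-48294405, plus strand) lie 16185 bp apart. Their promoters were the last of the 6 to be called, and at D16S+ they had the lowest levels. At Dppa4 the region was called with 12 tags at D16S+ (0.567 CPM, interval 0.293 to 0.990) and 16 tags in iPSCs (0.602 CPM, 0.344 to 0.978), and in no other library. At the start of Dppa2 it was called with 14 tags at D16S+ (0.661 CPM, 0.361 to 1.11) and 17 tags in iPSCs (0.640 CPM), with the summit at 38 bp inside the first coding exon. In iPSCs a region upstream, at −1261 bp, was stronger, with 24 tags (0.903 CPM, 0.579 to 1.34).

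Both starts were thus called in D16S+ and iPSCs alone, close to the limit of detection. The interval of Dppa4 at D16S+ reached below the lowest called level of all 5 earlier libraries, so a change from them was not detectable at this depth. At the start of Dppa2, the intervals began at 0.361 CPM at D16S+ and 0.373 CPM in iPSCs. Both lay above the lowest called levels of D0 and D3 only, so a change from D6T-, D9T- and D12S+ was not detectable there either. The interval of the upstream Dppa2 region, called in iPSCs alone, lay above all 5. Among the called promoters of iPSCs, Dppa4 stood at the 14.5th percentile and Dppa2, by its stronger upstream region and not its start, at the 42.2nd. The sequence next to the start of Dppa2 is shown because it belongs to the promoters that were called last. It had 3 CG dinucleotides, which are given in capitals within the 200 bases upstream of the TSS.
Dppa2 promoter, mm9 chr16:48310390-48310589, plus strand: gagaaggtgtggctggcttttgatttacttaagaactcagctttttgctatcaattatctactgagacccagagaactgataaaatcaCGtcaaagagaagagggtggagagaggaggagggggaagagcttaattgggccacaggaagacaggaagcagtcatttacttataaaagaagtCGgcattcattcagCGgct
The same span held 7 at Zfp42, 8 at Dppa5a, 11 at Utf1 and 20 at Fgf4. Over 500 bp, the CpG content of these 5 promoters as observed over expected ran from 0.347 at Dppa2 to 0.567 at Fgf4, between the 42.7th and 62.9th percentile of all protein-coding promoters, whose median was 0.427.

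A place between the genes behaved otherwise. It lay at chr16:48303518-48304381, at −6732 bp from Dppa2 and 20010 bp past the TSS of Dppa4, and in each library that called it no other region around either gene was stronger. It was called with 19 tags in D0 (0.599 CPM), 27 in D3 (0.893), 29 in D6T- (1.36) and 9 in D9T- (0.681). It was not called at D12S+, and was called again with 14 tags at D16S+ (0.661) and 26 in iPSCs (0.978). The place was therefore open in fibroblasts, where neither promoter was called. The level at D6T- was 2.26 times that at D0 (interval 1.23 to 4.27) in CPM but 0.558 times as a relative level, so the direction followed the scale. An AP-1 motif (TGANTCA), a site for the Fos and Jun factors that are active in fibroblasts, lay near its summit, at −6758 bp from Dppa2. The motif was held by 38.4% of all D6T- regions and 8.67% of iPSCs regions within 150 bp of the summit, and the site is printed with the match in capitals.
AP-1 site between Dppa4 and Dppa2, mm9 chr16:48303819-48303845, plus strand: gacttccagcTGAGTCActaaaccagg

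Zfp42 (ENSMUSG00000051176.5, chr8:44380422-44392363, minus strand) reached the highest promoter level of the group, at D16S+. No library up to D9T- called it. It was called with 23 tags at D12S+ (1.31 CPM, 0.828 to 1.96), 61 at D16S+ (2.88 CPM, 2.20 to 3.70) and 40 in iPSCs (1.5 CPM, 1.08 to 2.05), each with the summit at −101 to −118 bp. All 3 intervals lay above the lowest called level of each earlier library.

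From D12S+ to D16S+ the level of Zfp42 rose 2.21 times (1.35 to 3.74), more than counting error, while the median ratio of all promoters was 0.968. From D16S+ to iPSCs it was 0.522 times (0.342 to 0.791), but all promoters had a median ratio of 0.569, and its relative level was 1.24 and 1.25. Its percentile among called promoters went from 31.4 at D12S+ to 75.7 at D16S+, with 79.9 in iPSCs. Inside the first part of the gene, a region at 1186 bp, in an intron, was called at D16S+ (15 tags, 0.708 CPM) and in iPSCs (26 tags, 0.978 CPM) only. The sequence upstream of the TSS is shown because it carried the strongest opening, again with CG in capitals.
Zfp42 promoter, mm9 chr8:44392364-44392563, minus strand: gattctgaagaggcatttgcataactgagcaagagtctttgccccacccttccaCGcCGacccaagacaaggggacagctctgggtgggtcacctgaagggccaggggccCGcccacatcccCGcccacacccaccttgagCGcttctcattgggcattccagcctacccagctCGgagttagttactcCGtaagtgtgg
An octamer, the DNA word bound by Oct4 and related POU factors, lay at −182 bp within this promoter. It was found within 150 bp of 2.38% of all iPSCs summits, and among the 28 iPSCs regions of the 6 genes in this place alone. It is printed with the match in capitals, on the strand that reads as the motif.
Zfp42 octamer site, mm9 chr8:44392532-44392559, plus strand: ttgctcagttATGCAAATgcctcttcag

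Utf1 (ENSMUSG00000047751.8, chr7:147129688-147131011, plus strand) differed from the other genes in having a summit within 500 bp of its TSS from D0 on, at first inside the gene. Its promoter, taken upstream only, was called at D3 with 26 tags (0.860 CPM, 0.562 to 1.26), at D6T- with 31 (1.45 CPM, 0.985 to 2.06), at D12S+ with 25 (1.42 CPM, 0.919 to 2.1), at D16S+ with 37 (1.75 CPM, 1.23 to 2.41) and in iPSCs with 41 (1.54 CPM, 1.11 to 2.09). In D0, D9T- and D6 siH3.3 the same place was called too, but the region began past the TSS. It had 17 tags at D0 (0.536 CPM), 8 at D9T- (0.605) and 11 in D6 siH3.3 (0.589). D6 siNT alone had none.

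The summit of Utf1 moved along the course. It lay inside the gene, at 403 bp in D0, 265 bp in D3, 398 bp in D6T- and 223 bp in D9T-. Afterwards it lay at the TSS (43 bp in D12S+, −28 bp in D16S+, −5 bp in iPSCs). In CPM the place was 2.88 times as high in iPSCs as at D0 (1.60 to 5.40) and 1.06 times as high as at D6T- (0.651 to 1.76). Relative levels were 0.567, 0.377, 0.378 and 0.400 from D0 to D9T-, then 0.581, 0.755 and 1.28 from D12S+ to iPSCs, so by this scale the 3 late libraries were above the 4 early ones, narrowly so for D12S+ against D0.

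Some regions on either side of Utf1 were called in late libraries alone. Those upstream lay inside the neighbouring gene Kndc1, and the region at 8385 bp lay in an intron of Gm16201. The clearest of these late regions lay at 1978 bp, 3′ of the gene and between genes, with 14 tags at D12S+ (0.795 CPM), 20 at D16S+ (0.945) and 27 in iPSCs (1.02). It held a SOX half-site (CNTTGT) followed after 1 base by a POU half-site (ATGNNA), the composite word for Sox2 and Oct4, in 1 of 28 iPSCs regions of the group against 0.473% of all iPSCs regions. The Utf1 gene is known for an enhancer of this kind on its 3′ side, and the site is printed with the match in capitals.
Utf1 downstream site, mm9 chr7:147131575-147131601, minus strand: gagccgtCATTGTTATGCTAgtgaagt
Further 3′, a place with its strongest summit at 6218 bp, which spans the start of the lincRNA gene Gm16201, was the only place around the 6 genes called in all 9 libraries. Its levels ran from 0.851 CPM at D0 to 3.09 at D6T-, and 1.05 in iPSCs. Its relative levels were 0.900 at D0 and 0.875 in iPSCs, unlike the place at the start of Utf1. The summits of these libraries lay at 6722 and 6748 bp, away from the D6T- summit at 6218 bp.

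Dppa5a (ENSMUSG00000060461.5, chr9:78214859-78215984, minus strand) was called at its start with 11 tags at D12S+ (0.625 CPM, 0.312 to 1.12), 22 at D16S+ (1.04 CPM, 0.651 to 1.57) and 19 in iPSCs (0.715 CPM). A further promoter place, around −1346 bp, was called with 20 tags at D16S+ (0.945 CPM) and 23 in iPSCs (0.865 CPM, 0.549 to 1.30), where it was the higher of the pair. The interval of the start region at D12S+ reached below the lowest called level of the 4 earlier libraries, that at D16S+ did not, and that in iPSCs (0.430 to 1.12) reached below the level of D9T-. The strongest place of the gene was distal, at −6915 bp towards Ooep, with 14 tags at D12S+ (0.795 CPM), 18 at D16S+ (0.85) and 36 in iPSCs (1.35 CPM, 0.949 to 1.88). It was 1.70 times as high in iPSCs as at D12S+ (0.897 to 3.42), within counting error in CPM, and 3.46 times by relative level.

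Repeated sequence limits what can be read at Dppa5a. Of the windows of 51 bases, the read length, 24.5% in the gene and 80.3% within 500 bp of its TSS occurred once in the genome, against 100% in the genes Utf1 and Fgf4. The 2 places called inside Dppa5a at D3 alone, at 568 and 884 bp, had 32.9% and 0% of unique windows. Around Zfp42, the 2 places called at D3 alone, at −8413 and −6621 bp, had 0%. These 2 pairs of places were the only D3 regions in the windows of Dppa5a and Zfp42. The D3 window calls of both genes below thus rest on partly or wholly repeated sequence.

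Fgf4 (ENSMUSG00000050917.4, chr7:152047291-152051148, plus strand) was the ligand of the group. It was called at its start with 9 tags at D12S+ (0.511 CPM, 0.234 to 0.970), 31 at D16S+ (1.46 CPM, 0.995 to 2.08) and 32 in iPSCs (1.20 CPM, 0.823 to 1.70). The rise from D12S+ to D16S+ was 2.87 times (1.33 to 6.84), the largest ratio among the 4 genes called in both, and the level at D12S+ was the lowest callable there plus 1 tag. The D3 call belonged to another place, at −1273 bp, with 11 tags (0.364 CPM), which no later library called. The interval at D12S+ reached below the lowest called levels of the earlier libraries, and those of D16S+ and iPSCs lay above them.

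Other regions around Fgf4 differed in when they were called, with 6 of its 10 places called in an early library. The place at −9895 bp was called with 14 tags at D3 (0.463 CPM), then with 13 at D12S+ (0.738), 17 at D16S+ (0.803) and 19 in iPSCs (0.715). An intronic place at 1134 bp had 14 tags at D0 (0.441 CPM), 10 at D3 (0.331) and 16 in iPSCs (0.602). The distal late-only places were a pair. A place with its strongest summit at −3372 bp was called with 11 tags at D12S+ (0.625 CPM), 17 at D16S+ (0.803) and 24 in iPSCs (0.903). The place is 1325 bp wide, and its summit lay at −4066 bp in D12S+, −4089 bp in D16S+ and −3372 bp in iPSCs. The late levels were thus not read at the same position. A place at 3130 bp, in the 3′ UTR, was called with 10 tags at D12S+ (0.568 CPM) and 25 in iPSCs (0.941), and not at D16S+. This UTR is known for an enhancer that Sox2 and Oct4 bind together. The region held the SOX half-site followed after 4 bases by the POU half-site, which 0.215% of all iPSCs regions did, and the site is printed with the match in capitals.
Fgf4 site in the 3′ UTR, mm9 chr7:152050293-152050320, plus strand: aaaactCTTTGTTTGGATGCTAatggga
The octamer and the composite words of either spacing were thus each found at 1 of the 28 iPSCs regions of the 6 genes. The CTCF core was at 0 of 28 against 4.37% of all iPSCs regions. At D6T- it was at 1 of 5 regions of the 6 genes, against 3.51% of all D6T- regions. That match lay at 6195 bp of Utf1, in the place at 6218 bp, whose iPSCs summit lay at 6748 bp. AP-1 was at 1 of 28 in iPSCs, or 3 of 21 at D16S+, where 8.95% of all regions held it. Words that were not found say only that these letters were not within 150 bp of a summit.

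Of 16 genes for receptors, adaptors and targets of the FGF4 pathway, 13 (D9T-) to 16 (D0, D3, D16S+ and iPSCs) had a called promoter in the 7 libraries of the course, beside 50.4% to 68.3% of all promoters. The order of no call up to D9T- and calls in both D16S+ and iPSCs was met by 0 of 16, beside 0.805% of all promoters, and the Fgf4 promoter itself missed it by the D3 call. Dusp6, a phosphatase that restrains ERK, had 2.11 CPM at D0 and 2.07 in iPSCs, and Etv5, a transcription factor downstream of FGF, had 1.86 and 1.99.

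Changes between libraries were read against all promoters. From D0 to iPSCs, 5 of 6 promoters were at least 2-fold higher when the uncalled D0 level was set at the lowest called pileup, against 15.5% of promoters called in either library. Dppa4 was the exception at 1.74 times, and Utf1, at 4.45 times by this rule, was 2.88 times by the place at its start. The iPSCs levels of Dppa2 and Dppa5a were those of their upstream places, at 0.903 and 0.865 CPM. At their starts they had 0.640 and 0.715 CPM, beside 0.347 as the lowest called D0 level. At its start, Dppa2 thus did not reach 2-fold by this rule. From D9T- to D12S+, 2 of the 4 genes called, Zfp42 (at least 2.46 times) and Utf1 (at least 2.68 times), passed 2-fold against 24.3% of all promoters. The general scale rose at this step too, with a median ratio of all promoters of 1.56. At the place at its start, Utf1 was 2.34 times as high in CPM (1.03 to 6.01) but 1.45 times by relative level. Zfp42, uncalled at D9T-, had no relative level there. The D9T- library was the shallowest, and its lowest called level of 0.530 CPM was above the D12S+ level of Fgf4. From D12S+ to D16S+, 2 of 6 genes (Zfp42 and Fgf4) passed 2-fold, against 1.51% of all promoters.

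Between D16S+ and iPSCs, 0 of 6 promoters were 2-fold higher and 0 of 6 were 2-fold lower, against 0.400% and 36.5% of all promoters. At the place nearest the start of each gene, the ratios of iPSCs over D16S+ were 0.967 for Dppa2 (0.449 to 2.12), 1.06 for Dppa4 (0.471 to 2.46), 0.688 for Dppa5a (0.352 to 1.33), 0.883 for Utf1 (0.552 to 1.42) and 0.822 for Fgf4 (0.486 to 1.39). Each of these intervals held 1, which does not show that the levels were equal. By relative level each of these 5 genes was higher in iPSCs, with Dppa2 at 0.286 and 0.531, Dppa4 at 0.245 and 0.500, Dppa5a at 0.449 and 0.594, Utf1 at 0.755 and 1.28 and Fgf4 at 0.633 and 1.00. The direction of Dppa2, Dppa5a, Utf1 and Fgf4 between these libraries thus turned with the scale. By the highest promoter level, which in iPSCs lay at the upstream place for Dppa2 and Dppa5a, the ratios were 1.37 (0.678 to 2.86) and 0.833 (0.444 to 1.57).

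**Figure D2:**
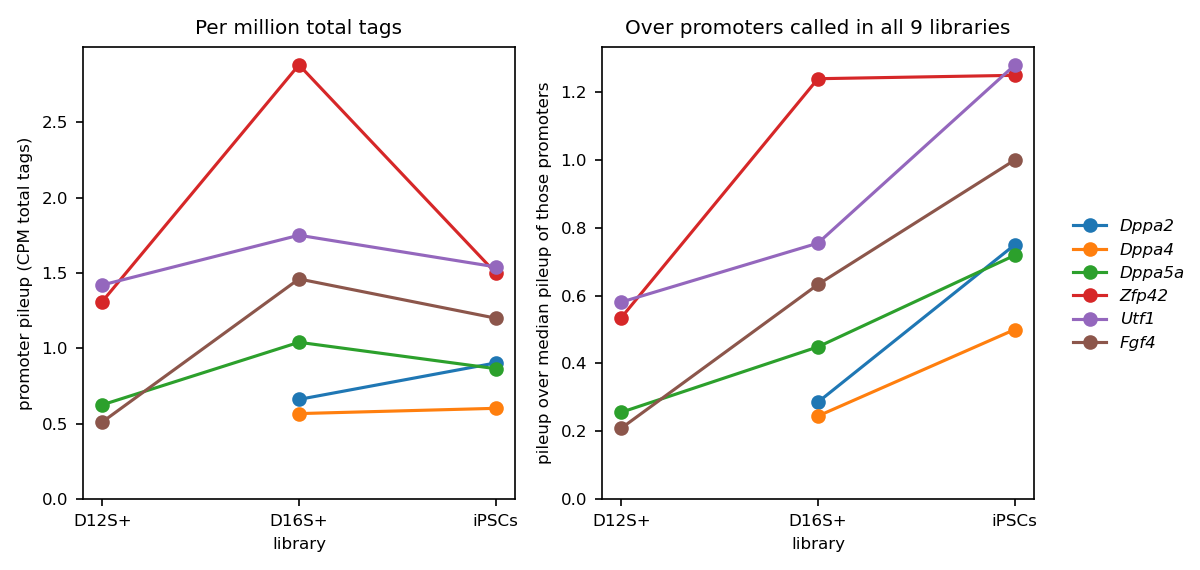
Promoter levels of the 6 genes (1 coloured line each) in D12S+, D16S+ and iPSCs (x axis), in CPM of total tags (left, y axis) and as a ratio to the median pileup of the promoters called in all 9 libraries (right, y axis). Zfp42 falls from 2.88 to 1.5 CPM on the left but stays at 1.24 and 1.25 on the right, where the other 5 genes are higher in iPSCs than at D16S+.

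Promoters included, 39 distinct places were called within 10 kb of the 6 genes in any library, and 12 of them overlapped a promoter. Of the 39, 15 were called in at least 2 of D12S+, D16S+ and iPSCs and in no other library, while 4.17% of 210151 places in the genome were. Another 15 were called in D0, D3, D6T- or D9T-, and 18 were called in 1 library alone. Of the 15 late-only places, 6 overlapped a promoter counted above. Every gene had at least 1, with 4 each at Dppa5a and Utf1, 3 at Fgf4, 2 at Zfp42 and 1 each at Dppa2 and Dppa4, which was the place at the start of the gene. Regions in the windows, summed over the genes, numbered 11, 12, 6 and 5 in the 4 early libraries and 16, 22 and 29 in the 3 late ones, with the shared place counted for both Dppa genes.

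As a mere count of genes with any region in the window, the course was less clear. The numbers were 5, 6, 4 and 3 of 6 in the 4 early libraries, in order of time, and 4, 6 and 6 of 6 in the 3 late ones. The shares of all protein-coding genes were 78.7%, 83.4%, 85.1%, 68.0%, 78.5%, 77.8% and 78.6%. The early calls of Dppa4 were all at the place shared with Dppa2, and Dppa2 was called there in each early library. Dppa2 had another early place, at 16727 bp, called at D6T- alone with 12 tags (0.561 CPM). The early call of Zfp42 was the pair of repeated places at D3. Dppa5a at D3 likewise had only its places at 568 and 884 bp, of largely repeated sequence. Zfp42 had no region within 10 kb at D0, D6T- or D9T-.

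**Figure D3:**
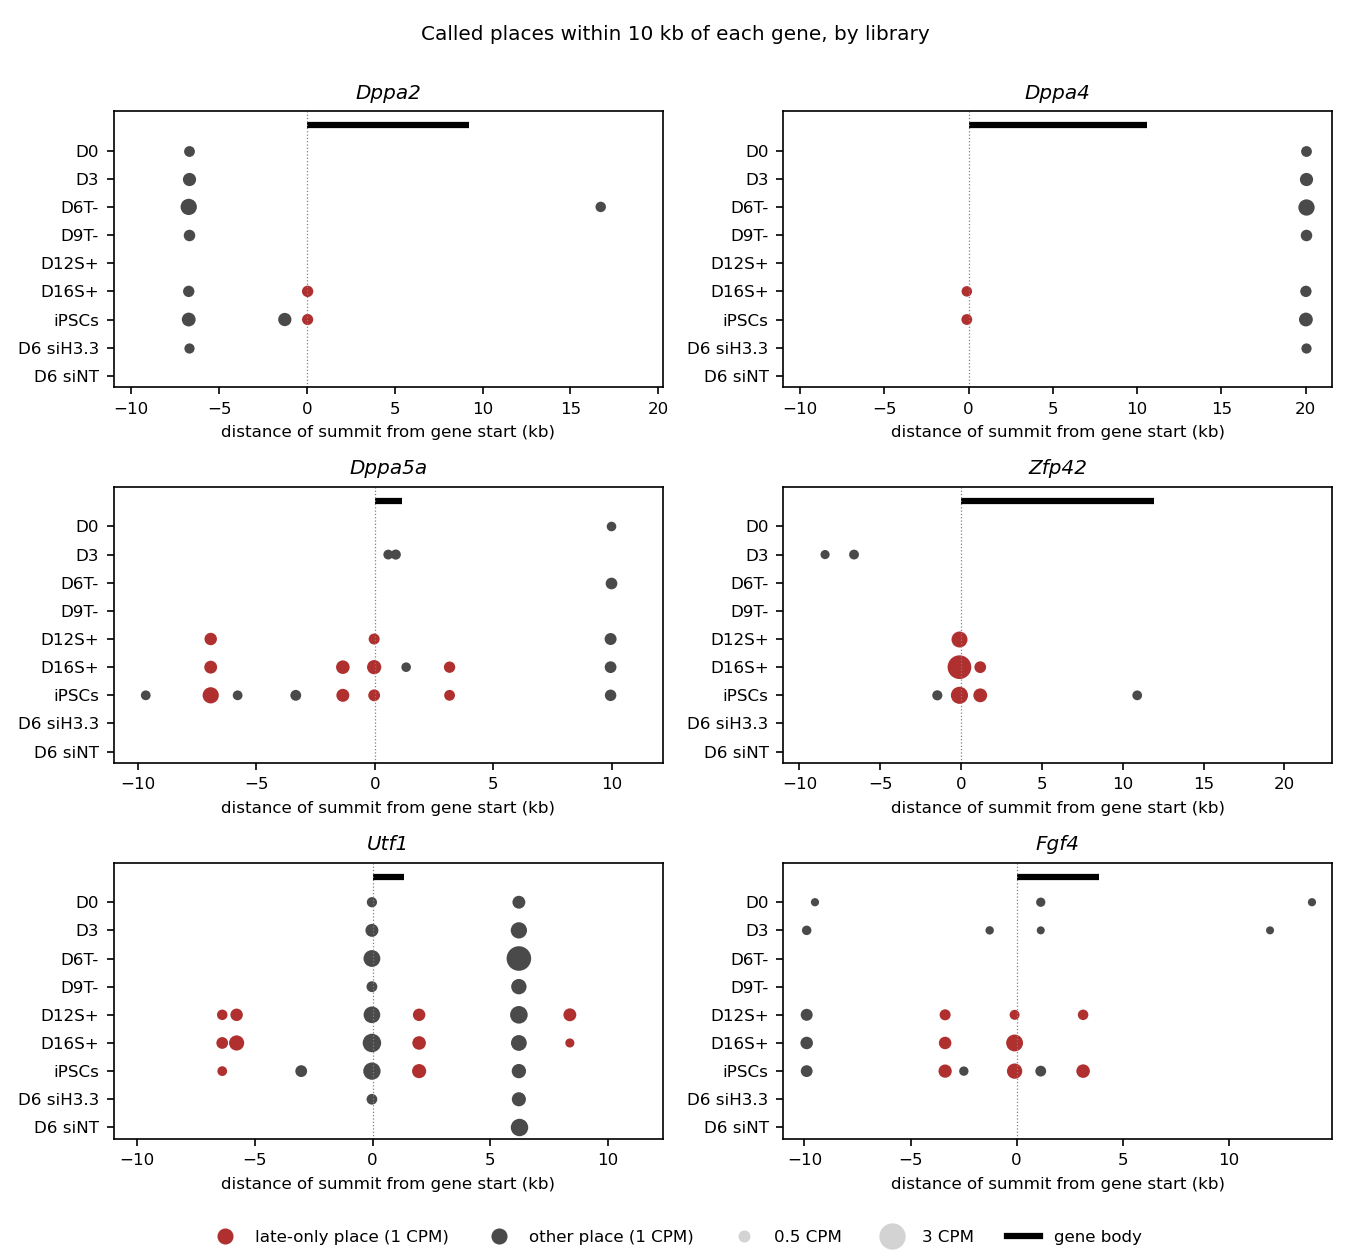
Called places around each gene, by distance of the strongest summit of the place from the gene start in kb (x axis, positive into the gene) and library (y axis), with circle area proportional to CPM and red for places called in at least 2 of the 3 late libraries and in no other. Late-only places cluster at and around Dppa5a, Zfp42, Utf1 and Fgf4, whereas the place between Dppa4 and Dppa2 is called in 7 libraries and that at 6218 bp of Utf1 in all 9.

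In the siRNA libraries, 0 of 6 promoters were called in D6 siH3.3 and 0 of 6 in D6 siNT, where 54.3% and 54.8% of all promoters were, so no promoter ratio could be given. ATAC-Seq does not measure H3.3, so the depletion was not checked here. The paper followed it by western blots at day 0 and day 6 and describes it as transient and limited to early reprogramming. The cells may therefore not have been depleted of H3.3 when they were collected. In the windows, D6 siH3.3 had a region for 3 of 6 genes and D6 siNT for 1 of 6, against 71.9% and 71.8% of all genes. The difference was the shared Dppa4 and Dppa2 place, with 10 tags in D6 siH3.3 (0.536 CPM, 0.257 to 0.985). The lowest called level of D6 siNT was 0.413 CPM, which lies within that interval, so a difference was not detectable.

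The same held at the place at the start of Utf1, where D6 siH3.3 had 0.589 CPM (0.294 to 1.05), with the summit at 229 bp. The place at 6218 bp of Utf1 was called in both, with 19 tags in D6 siH3.3 (1.02 CPM) and 34 in D6 siNT (1.56 CPM), a ratio of 0.652 (0.351 to 1.18) that was within counting error. Its summit lay at 6474 bp in D6 siH3.3 and at 6280 bp in D6 siNT. In the untransfected D6T- library, with a general scale 3.83 CPM against 1.38 in D6 siNT, the Dppa place, the start of Utf1 and the place at 6218 bp had 1.36, 1.45 and 3.09 CPM.

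Some other pluripotency genes had the same late order. Of 29 further genes of the pluripotency network, 12 had a called promoter at D0, 17 to 19 at D3 and D6T-, 11 at D9T-, and 23, 26 and 27 in the 3 late libraries. Of these, 7 (Gdf3, Mael, Nanog, Nr0b1, Nr5a2, Otx2 and Tcl1) were called in D16S+ and iPSCs and in none of the 4 early libraries, beside the 0.805% of all promoters. The strongest at iPSCs, Pou5f1, which codes for Oct4, was called in all 9 libraries with 13.1 CPM at D0 and 14.4 in iPSCs. Its D0 level was far above the median of 0.946 CPM at the promoters called in all 9 libraries. The level is the highest within 3 kb upstream of any annotated TSS, and which place gave it was not examined. Openness of the main Oct4 gene start at D0 can therefore not be read from it. Klf5, a Krüppel-like factor, had 0.914 CPM at D0 and 2.67 in iPSCs.

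The labelled cell states were checked by marker promoters. Of 9 pluripotent cell markers, 1, 3, 5 and 1 were called in the 4 early libraries and 6, 8 and 8 in the 3 late ones, and all 9 are also in the network list above. Among them Dppa3, of the same named family, was called from D6T- on (0.841 CPM) and had 1.43 in iPSCs, and Esrrb had 0.568 at D0 and 1.28 in iPSCs. Of 16 fibroblast markers, 14, 16, 15 and 10 were called in the 4 early libraries and 14, 14 and 10 in the 3 late ones. Of all promoters, 50.4% (D9T-) to 68.3% (D6T-) were called in these libraries. The fibroblast counts thus did not separate the early from the late libraries. Snai2 and Snai1, factors of the mesenchymal state, stayed called in iPSCs at 1.17 and 1.05 CPM. All 10 housekeeping promoters were called in each library, with Rplp0 at 1.92 CPM at D0 and 2.03 in iPSCs and Pgk1 at 1.17 and 1.66. Dppa1, another gene of the family name, was called at D3, D6T-, D9T-, D12S+, iPSCs and D6 siNT at up to 1.22 CPM, and Morc1 at D16S+ alone (0.803 CPM).

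**Figure D4:**
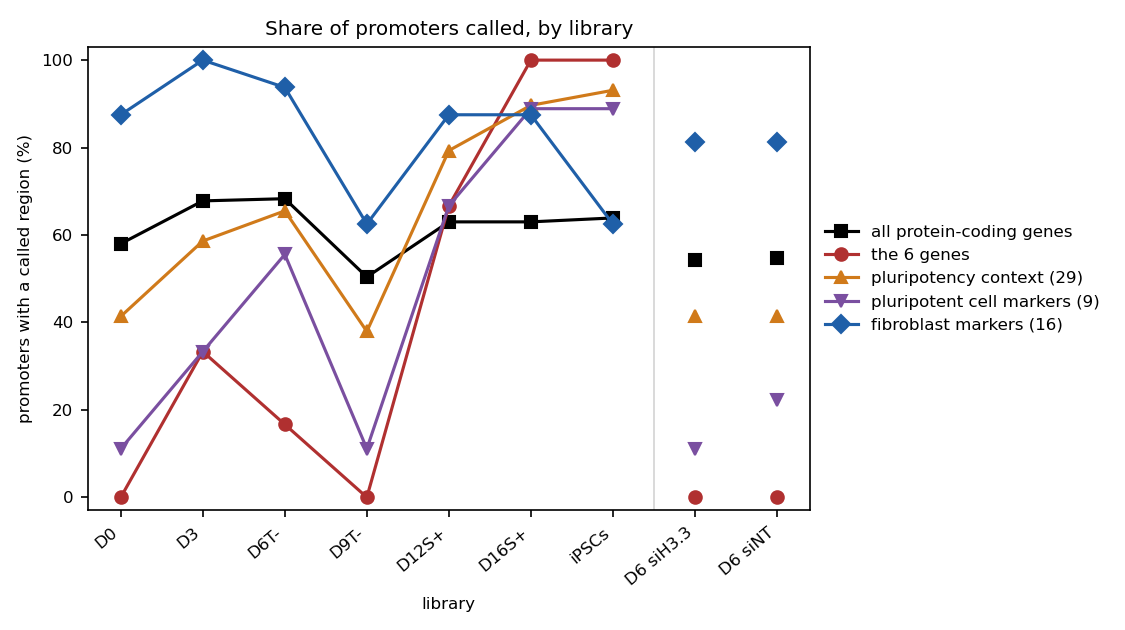
Share of promoters with a called region (%, y axis) in each library (x axis) for all protein-coding genes, the 6 genes and 3 marker lists, with the number of genes in each list in brackets. The 6 genes go from 0 of 6 at D9T- to 6 of 6 at D16S+, while all protein-coding promoters stay between 50.4% and 68.3%.

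The promoters most like each gene were found by the Euclidean distance of log2(CPM + 0.5) over the 9 libraries. They were Naa11 (0.07), Tcl1 (0.11) and Rbm44 (0.12) for Dppa2, and Gm15217 (0.00), Hus1b (0.06) and Gm17618 (0.06) for Dppa4. Those of Dppa5a were Tmem102 (0.10), Sox15 (0.12) and Trim52 (0.18), and those of Zfp42 were Mageb16 (0.28), 1700008F21Rik (0.33) and Gm6871 (0.42). Utf1 was nearest to Slc35f2 (0.44), Csrnp3 (0.48) and Gm12830 (0.51), and Fgf4 to Ptgdr (0.32), Tulp1 (0.44) and Fam169a (0.51). The distances were smallest for Dppa4 and Dppa2, which had the fewest called libraries. Mageb16, the nearest to Zfp42, had 1.25 CPM at D12S+, 2.93 at D16S+ and 1.92 in iPSCs.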

How the data were processed

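ATAC-Seq peak files of 9 libraries, 1 per condition, were analysed. Per the labels and the paper's methods, the authors mapped reads to mm9 with STAR, removed duplicates with Picard, and kept uniquely mapped reads. Per the file headers, peaks were called in each library with MACS2 2.1.0.20151222 without a control, at a q-value cutoff of 0.05, with tags of 51 bp extended to 200 bp. The pileup that the authors deposited is a signal: it counts the extended tags covering a summit and is not corrected for depth. The deposited fold enrichment is a ratio to an even background, and the deposited significance is −log10 of the p-value and q-value.

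Within a library, peaks that overlapped were joined into 1 region, whose highest pileup was divided by the total tags in the header (CPM). The annotation was GENCODE vM1 (NCBIM37, the mm9 build), and coordinates count from 1. The promoter was 3 kb upstream of any TSS, the window reached 10 kb beyond the gene, and 1 bp of overlap was enough. Regions of the 9 libraries that overlapped were joined into places. Intervals of ratios are exact conditional intervals. Named were the 6 genes, the 2 strongest list genes at iPSCs promoters and the 3 genes nearest to each of the 6. The genes and lists were chosen with earlier results of these data known. The listed gene Tfcp2l1 was not matched and not analysed here, and the promoter sequence and composition of Dppa4 are not reported here. Motifs were sought on both strands, and the AP-1 and CTCF motifs and the rule of a summit within 500 bp were added after seeing the data. Alternatives were a −log10 q of at least 5, equal numbers of regions, other promoter and window bounds, fold enrichment and scaling by constantly called promoters. Software was samtools 1.23.1, scipy 1.17.1, pandas 2.3.3 and numpy 2.4.6 under Python 3.11.15, and the functions were tested on simulated data (5 of 5 tests passed).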

Additional observations from a re-analysis of the deposited data

How the results depend on the processing

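Of 54 alternative counts of promoters called, 40 stayed within 1.5 times of the reported count, and of 36 alternative window counts, 25 did. At D16S+ and in iPSCs every promoter and window count stayed within 1.5 times, although Dppa4 lost its D16S+ call with a −log10 q of at least 5 and with equal numbers of regions, and Dppa2 lost it when the summit had to lie in the promoter. The count at D0 and at D9T- was 1 rather than 0 with a short promoter (from 1 kb before the TSS to 100 bp after it) or a summit within 500 bp of a TSS, as it was in D6 siH3.3, and the gene was Utf1 each time. The D3 count was 1 rather than 2 with the stricter q, equal numbers, the short promoter, the summit inside the promoter or the summit within 500 bp. The D6T- count was 0 with the summit inside the promoter, and the D12S+ count was 2, without Dppa5a and Fgf4, with the stricter q or equal numbers. In the windows, the D0 count was 3 with the stricter q or equal numbers and 2 with 5 kb flanks, the D3 count was 3 with equal numbers or 5 kb flanks, and the D6T- count was 1 with 5 kb flanks. The D9T- count was 1 with the stricter q or 5 kb flanks, and the D6 siH3.3 count was 1 with either of these or equal numbers. Scaled by promoters called in all libraries, the log2 ratio of iPSCs over D16S+ changed sign to 0.68 for Dppa5a, 0.01 for Zfp42, 0.76 for Utf1 and 0.66 for Fgf4; the other 19 of 23 alternative ratios kept direction and differed from the reported ratio by less than its counting error.

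No paired analysis was possible because each condition had 1 library. The spread between cultures is unknown, and levels near 7 to 11 tags are at the limit of detection. The lowest called level of D9T-, the library with the fewest tags, was above the D12S+ level of Fgf4.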
